A study of Mus musculus with 2 samples.

Results

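Imprinted genes of mouse chromosome 2 were examined at 3 loci: Gnas with its antisense transcript Nespas (current symbol Gnasas1), Nnat with Blcap, and Mcts2 with H13. The 6 genes were looked up by name in the authors' deposited table of genes nearest to differentially methylated regions, which names 3421 annotated genes in all. Whole-genome bisulfite sequencing, which reads a cytosine protected from conversion (methylated or hydroxymethylated) as methylated, was applied to eGFP-sorted cells from mouse embryonic pancreas (E14.5). One library was Ngn3 null (Ngn3eGFP/eGFP, called endocrine progenitors by the labels) and 1 was Ngn3 heterozygous (Ngn3eGFP/+, called islet progenitors). Ngn3 (Neurog3) is the transcription factor that commits pancreatic progenitors to the endocrine lineage, and both groups carry the eGFP reporter at that locus, on a mixed background of over 95% ICR. The labels do not say how many embryos each library drew on, or their sex. Because the labels name a different progenitor for each genotype, genotype and cell stage cannot be told apart. There was 1 library per genotype, so differences could not be set against the spread between replicates and are given without a test.

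Imprinted genes are expressed mainly from the allele of 1 parent, and the choice is carried by CpG methylation laid down in the egg or the sperm. At all 3 loci a paternally expressed transcript starts within or opposite another gene, at a region that is methylated on the maternal allele. Gnas encodes the stimulatory G protein alpha subunit, which couples hormone receptors to adenylate cyclase, and also produces the maternally expressed neuroendocrine secretory protein Nesp55 and the paternally expressed long form XLas; Nespas is the paternally expressed antisense RNA. Nnat (neuronatin) encodes a small protein of the endoplasmic reticulum membrane that in beta cells has been linked to insulin processing. It lies in an intron of Blcap, a widely expressed gene first described in bladder cancer. Mcts2 is a retrogene, copied from the X-linked gene Mcts1, inside an intron of H13, which encodes the signal peptide peptidase.

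The promoter windows below show some of the sequence on which methylation could differ. No window was available for Nespas. Each holds 250 bases before and 50 bases after an annotated start (RefSeq, GRCm38.p6), with every CpG in capitals. The most CpG-rich window relative to base composition (Mcts2), the inner and host genes of the pair in which just the inner gene was named (Nnat and Blcap), and the most upstream and most downstream of the 4 Gnas starts are shown. The most upstream start is that of the Nesp55 transcript.
Mcts2, chr2:152686898-152687197, plus strand: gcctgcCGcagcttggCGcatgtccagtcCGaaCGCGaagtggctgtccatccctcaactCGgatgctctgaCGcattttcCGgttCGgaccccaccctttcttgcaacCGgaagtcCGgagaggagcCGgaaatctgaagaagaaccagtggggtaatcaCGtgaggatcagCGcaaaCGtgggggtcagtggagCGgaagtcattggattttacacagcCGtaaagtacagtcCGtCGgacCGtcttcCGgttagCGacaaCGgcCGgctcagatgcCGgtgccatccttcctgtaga
Nnat, chr2:157559828-157560127, plus strand: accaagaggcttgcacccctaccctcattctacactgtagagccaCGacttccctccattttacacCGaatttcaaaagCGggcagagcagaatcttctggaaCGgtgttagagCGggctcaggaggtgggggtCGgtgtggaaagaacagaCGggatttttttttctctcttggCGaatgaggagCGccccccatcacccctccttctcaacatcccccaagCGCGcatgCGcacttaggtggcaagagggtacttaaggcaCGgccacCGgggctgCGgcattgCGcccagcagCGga
Blcap, chr2:157566312-157566611, minus strand: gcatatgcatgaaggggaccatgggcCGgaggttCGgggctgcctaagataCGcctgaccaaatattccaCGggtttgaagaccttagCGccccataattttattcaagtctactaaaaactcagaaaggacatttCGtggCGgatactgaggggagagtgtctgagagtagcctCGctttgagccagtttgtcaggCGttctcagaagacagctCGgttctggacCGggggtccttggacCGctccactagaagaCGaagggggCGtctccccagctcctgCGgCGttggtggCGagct
Gnas, most upstream, chr2:174284070-174284369, plus strand: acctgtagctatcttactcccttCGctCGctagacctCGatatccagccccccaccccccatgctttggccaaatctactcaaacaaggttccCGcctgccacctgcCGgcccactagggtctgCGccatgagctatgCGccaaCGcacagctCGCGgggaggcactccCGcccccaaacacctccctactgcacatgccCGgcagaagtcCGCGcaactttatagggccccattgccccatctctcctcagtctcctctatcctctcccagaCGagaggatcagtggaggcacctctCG
Gnas, most downstream, chr2:174329756-174330055, plus strand: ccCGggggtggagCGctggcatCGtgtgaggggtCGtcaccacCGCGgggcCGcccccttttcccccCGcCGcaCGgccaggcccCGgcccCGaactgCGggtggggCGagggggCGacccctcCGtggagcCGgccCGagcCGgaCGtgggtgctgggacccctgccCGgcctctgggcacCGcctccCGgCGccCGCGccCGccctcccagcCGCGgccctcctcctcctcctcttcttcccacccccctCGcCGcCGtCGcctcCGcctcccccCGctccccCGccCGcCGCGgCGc

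Of the 6 genes, 5 were named near regions more methylated in the null library (the higher list) and 2 near regions less methylated in it (the lower list). Across all 49997 annotated genes, the higher list held 6.29% and the lower list 0.812%. Among the 21900 protein-coding genes the shares were 12.1% and 1.51%. Gnas and Nespas were the 2 members in the lower list, and both were in the higher list too, as were 0.26% of all genes. Nnat, Mcts2 and H13 were in the higher list alone. Blcap was the 1 member in neither list. Gnas overlaps Nespas and Mcts2 lies within H13, so the 5 names need not stand for 5 separate regions. The table gives no methylation level, coverage or region position, so neither the size of any difference nor the CpGs behind it can be stated.

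Gnas (gene 14683; chromosome 2, 174284320 to 174346744) spans 62.4 kb and was spelled GNAS in the higher list and Gnas in the lower list. Nespas (gene 56802; 174281237 to 174295436) spans 14.2 kb and had the same spelling in both. They overlap over 11.1 kb, which is 17.8% of Gnas and 78.3% of Nespas. One region inside that overlap could yield both names, so these are not independent entries. Genome-wide, 15216 pairs of annotated genes overlap, and in 241 of them (1.58%) both genes were in the higher list. In 6 pairs both genes were in both lists. Gnas with Nespas was 1 of the 6, and another, picked out after the values were seen, was the imprinted noncoding gene Peg13 with its host Trappc9 on chromosome 15. Myh7b with the microRNA gene Mir499 inside it was a further one and also lies on chromosome 2.

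Mcts2 and H13 were both named, but a single region inside Mcts2 could yield both names, so these are not independent entries. Mcts2 (gene 66405; chromosome 2, 152687148 to 152687946) is 799 bases long and lies wholly within H13 (gene 14950; 152669422 to 152708668), of which it covers 2.04%. The start of Mcts2 is 17.7 kb from that of H13. In the Nnat locus just the inner gene was named. Nnat (gene 18111; 157560078 to 157562525) covers 24.5% of Blcap (gene 53619; 157556362 to 157566361), and their starts are 6.28 kb apart on opposite strands. The table gives neither the position of the region nor the rule for the nearest gene, so the absence of Blcap is no measure of methylation within it.

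Both outcomes occurred in other nested genes. In 970 pairs a protein-coding gene lies within another one. The inner gene was in the higher list in 53 pairs (5.46%) and the host in 186 (19.2%). Of the 53, the host was named as well in 30, as for Mcts2 and H13, and was not named in 23, as for Nnat and Blcap. Among 11 imprinted genes that are nested or are hosts, the higher list held 7 (63.6%) and the lower list 2 (18.2%). The 11 include the members Mcts2, H13, Nnat and Blcap, so this count is not independent of theirs. The shares were 6.29% and 0.812% of all annotated genes, and 12.1% and 1.51% of protein-coding genes. Some hosts are long, such as Herc3 at 88.9 kb and Trappc9 at 472 kb, and in their length deciles 21% and 38.4% of protein-coding genes were in the higher list. Beside the 3 members of chromosome 2 these were Nap1l5, a retrogene, with its host Herc3, both in the higher list alone, and Peg13 with Trappc9; this pair was in both lists. Zrsr1, another retrogene, its host Commd1, and Inpp5f were in neither list, as was Blcap.

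**Figure D1:**
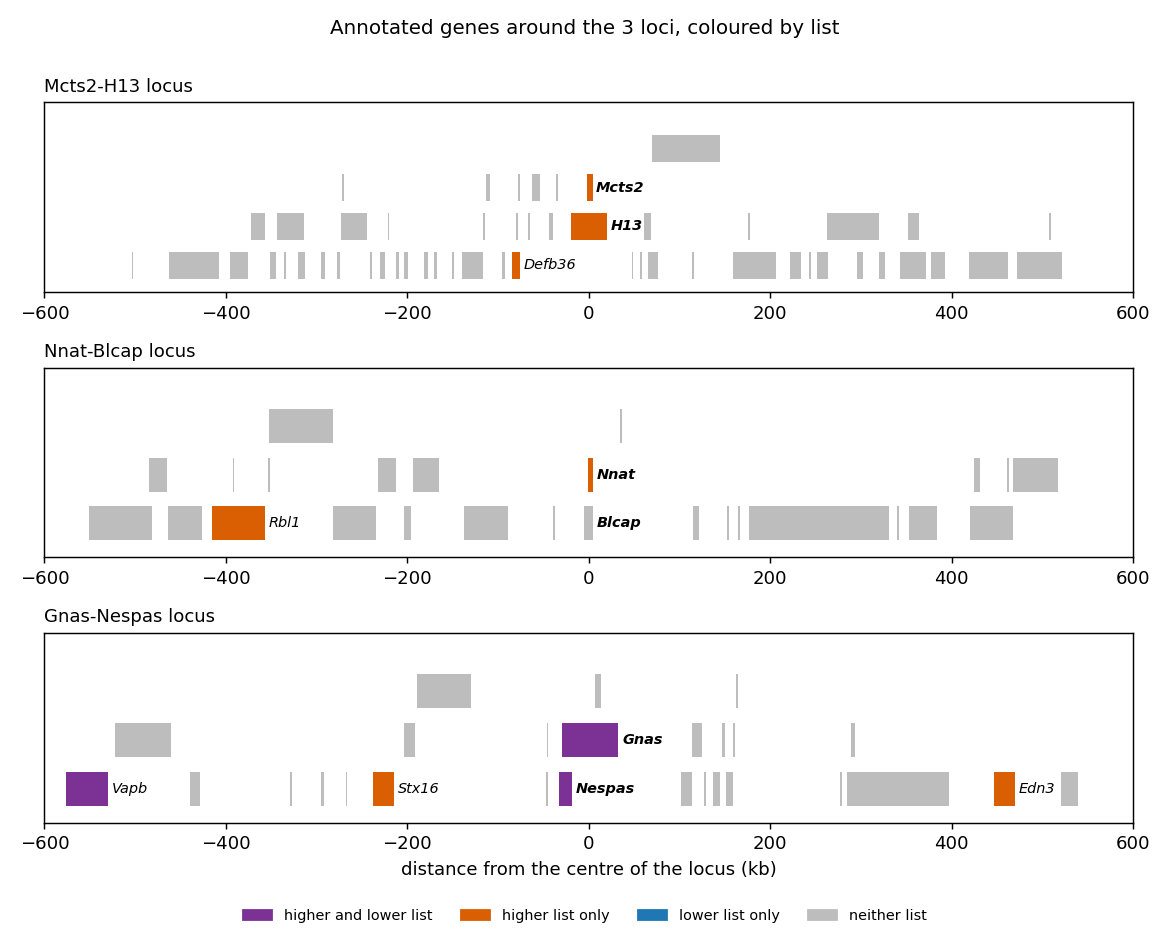
Annotated genes within 500 kb of each locus, drawn as bars at their distance in kb from the centre of the locus (bold names, the 6 members), coloured by list and stacked so that overlapping genes do not cover each other. Members shorter than 6 kb and other genes shorter than 2 kb are drawn at those widths; 5 of the 100 neighbours are in the higher list, and Vapb at the far left is also in the lower list.

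Few genes around the loci were named, at shares that differed from locus to locus. With counts this small, the difference between loci was not tested. Within 500 kb on either side, 5 of 100 neighbouring genes were in the higher list (5%, against 6.99% of the 3704 genes of chromosome 2) and 1 was in the lower list (1%, against 0.594%). Around Mcts2 and H13 the higher list held 1 of 51 neighbours (1.96%), the beta-defensin gene Defb36, which lies 56.7 kb before H13. The nearest genes on either side, 1700030C14Rik and Id1, an inhibitor of basic helix-loop-helix factors, were in neither list, and after H13 the next gene of the higher list was Asxl1, 637 kb away. The nearest genes of the lower list were 16.7 Mb before the locus (Plcb4) and 2.9 Mb after it (Myh7b).

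Around Nnat and Blcap, 1 of 24 neighbours (4.17%) was in the higher list. It was Rbl1, which encodes a pocket protein of cell cycle control, 352 kb before Blcap. The nearest genes, Gm14279 at 33.2 kb and Platr27 at 29.2 kb, were in neither list. No neighbour within 500 kb of either of these loci was in the lower list.

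Around Gnas and Nespas, 3 of 25 neighbours (12%) were in the higher list. Counting protein-coding genes alone, these were 1 of 7 (14.3%) within 250 kb, 3 of 10 (30%) within 500 kb and 6 of 20 (30%) within 1000 kb. Each window lies inside the next, so these counts are not separate observations. The share of all protein-coding genes was 12.1%. Protein-coding neighbours within 500 kb were named less often around Mcts2 and H13 (1 of 33, 3.03%) and around Nnat and Blcap (1 of 14, 7.14%). Over the 3 loci together they were 5 of 57 (8.77%). Stx16, a syntaxin gene 181 kb before the locus, was in the higher list alone. In people, deletions in STX16 are known to disturb methylation at GNAS. Any link between Stx16 and Gnas in these mouse cells was not tested. Edn3, which encodes endothelin 3, was in the higher list at 414 kb after Gnas. Vapb, which encodes a membrane protein of the endoplasmic reticulum, lay 497 kb before the locus and was in both lists. Between the locus and Stx16 lay 4 annotated genes in neither list, among them the microRNA gene Mir298 at 13.7 kb, the nearest of all. Nelfcd, the nearest gene after Gnas at 69.1 kb, and the long noncoding RNA gene Gm30189, which lies within Gnas, were also in neither list.

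**Figure D2:**
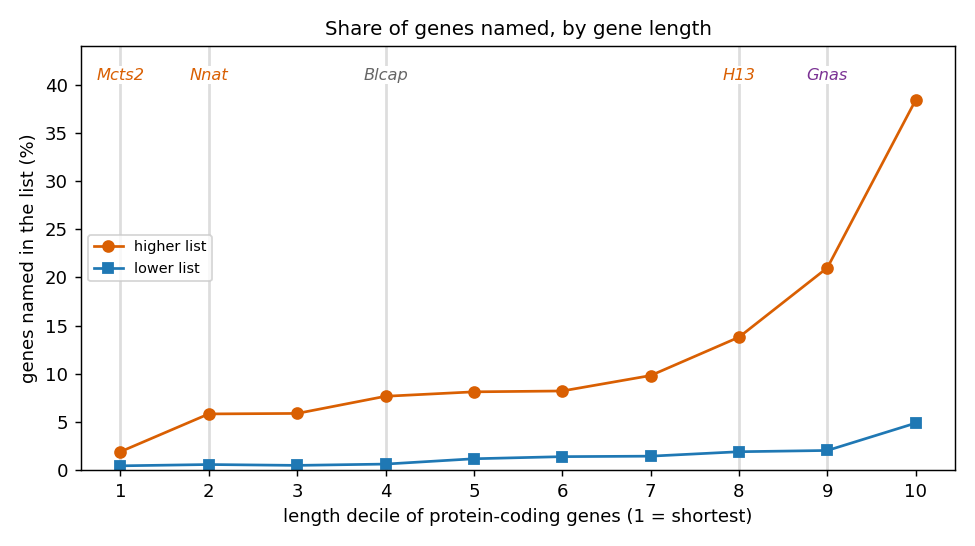
Percentage of protein-coding genes named in the higher list (circles) and the lower list (squares) in each length decile, from shortest to longest. The names along the top mark the deciles of the 5 protein-coding members; in the higher list the share is 1.92% in the decile of Mcts2 and 21% in that of Gnas.

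The share of genes named was larger among longer genes, and the members range from very short to long. Mcts2 is in the shortest decile of protein-coding genes, in which 1.92% were in the higher list. Of the 420 protein-coding genes no longer than Mcts2, the higher list held 5 and the lower list 0. The other 4, named here because they are so few, were the insulin gene Ins1, the histone genes H2al1j and H1f2, and the small heat shock gene Hspb3. Nnat is in the next decile, with 5.84% in the higher list. Blcap is in the fourth decile, with 7.67%. H13 is in the eighth, with 13.8%. Gnas is in the ninth, with 21% in the higher list, 2.05% in the lower list and 0.685% in both. For Mcts2, Nnat and Blcap the share of named genes of like length was thus below that of all protein-coding genes, and for H13 and Gnas above it.

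**Figure D3:**
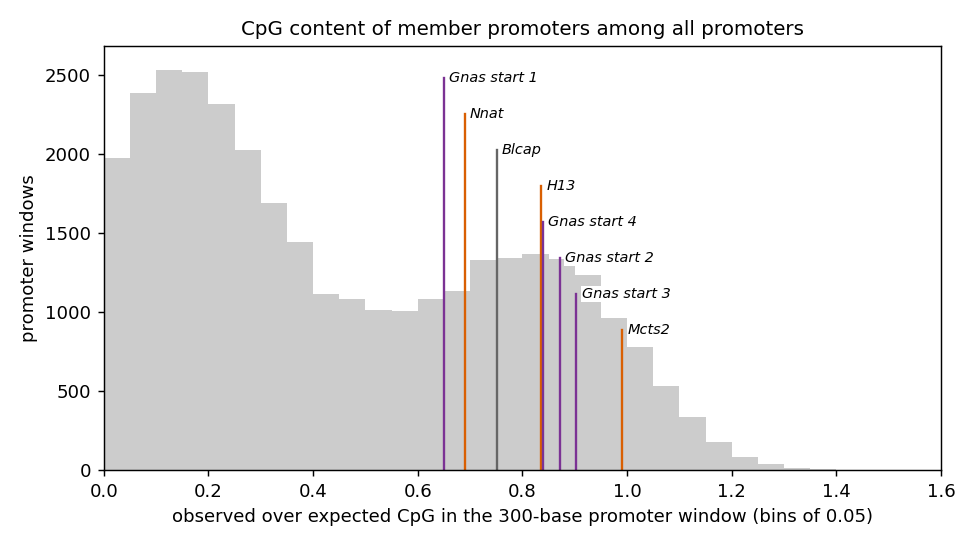
Observed over expected CpG in 300-base promoter windows, as a histogram of all 32851 windows (grey), with a line for each of the 8 windows of the members (line height has no meaning). Gnas starts are numbered from upstream to downstream; all 8 windows lie between 0.65 and 0.991, above the median of all windows, 0.384.

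Every member with a RefSeq promoter window had more CpG in it than the median window. The ratio of observed to expected CpG, which is 1 where CpG is as frequent as the C and G content alone would give, had a median of 0.838 over the 8 windows of 5 genes, with a range of 0.65 to 0.991. The median of all 32851 windows was 0.384. It was 0.62 for windows of genes in the higher list alone, 0.508 for the lower list alone, 0.472 for genes in both and 0.362 for genes in neither. Mcts2 had 25 CpGs and a ratio of 0.991, above 93.6% of all windows. H13 had 21 CpGs and a ratio of 0.836.

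The promoter printed for Blcap, which was not named, did not stand apart from that of Nnat, which was. Each held 17 CpGs, and their ratios were 0.69 for Nnat and 0.751 for Blcap. The 4 Gnas windows differed among themselves. The Nesp55 start had 16 CpGs and the lowest ratio of the 8, 0.65. A pair of starts 43.4 kb downstream, 19 bases apart and so sharing most of their sequence, had 27 and 28 CpGs and ratios of 0.871 and 0.903. The most downstream start, a further 2.24 kb on, had 40 CpGs, more than in 96.1% of all windows, at a GC content of 81.7% and a ratio of 0.839.

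Promoter windows were searched on both strands for 3 short motifs. TGCCGC, the hexamer that the imprint-protecting zinc finger protein ZFP57 binds when it is methylated, was in the windows of Mcts2 and Nnat, once in each. In Mcts2 it covered positions -247 to -242 relative to the start, and in Nnat positions 28 to 33, on the strand opposite to the gene. The hexamer was in 0 of the 6 other windows and in 11.6% of all windows. Among windows of genes in the higher list alone, as Mcts2 and Nnat were, 16.6% held it, and among those of genes in both lists 15.3%. GCCATNTT, a core of the binding site of YY1, was in 0 of the 8 windows and in 6.05% of all windows. The palindrome TGACGTCA, the cAMP response element, was likewise in 0 of the 8 and in 1.79% of all. These are matches of letters, and regions of differential methylation may lie outside these windows.

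**Figure D4:**
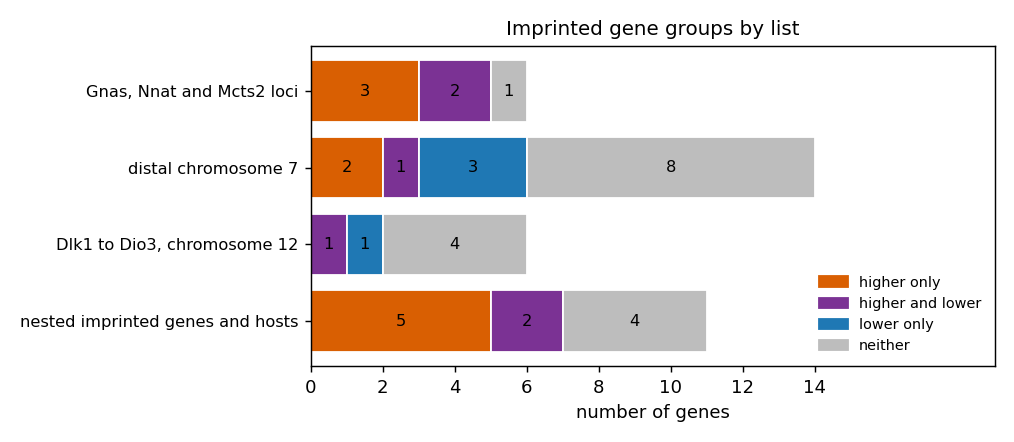
Number of genes in the higher list alone, in both lists, in the lower list alone and in neither, for the 6 members (top bar) and 3 other sets of imprinted genes. The 6 members have 0 genes in the lower list alone, against 3 of 14 on distal chromosome 7 and 1 of 6 on chromosome 12. With genes of both lists counted too, the lower list held 2 of the 6 members, 4 of 14 on distal chromosome 7 and 2 of 6 on chromosome 12. That whole list held 0.812% of all annotated genes. The bottom bar also contains Nnat, Blcap, Mcts2 and H13.

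Other imprinted clusters were set beside these loci without a test. Over all annotated genes the higher list held 6.29% and the lower list 0.812%, and over protein-coding genes 12.1% and 1.51%. On distal chromosome 7, the higher list held 3 of 14 genes (21.4%) and the lower list 4 (28.6%), with Kcnq1 in both. Kcnq1 spans 320 kb and lies in the length decile of which 38.4% was in the higher list. H19, Kcnq1ot1 and Slc22a18 were in the lower list alone, and the growth factor gene Igf2 and the cell cycle inhibitor gene Cdkn1c in the higher list alone. None of the 6 genes of chromosome 2 was in the lower list alone. The whole lower list, which includes genes in both lists, held 0.812% of all genes. The share in the lower list alone is smaller still, so none among 6 is near it. Counting genes in both lists, the lower list held 2 of the 6, Gnas and Nespas. In the cluster of chromosome 12, the higher list held 1 of 6 genes (16.7%) and the lower list 2 (33.3%). Dlk1 was in both lists and the noncoding RNA gene Meg3 in the lower list alone, while the other 4 genes were in neither. Elsewhere on chromosome 2, Sfmbt2, a Polycomb-related gene imprinted in extraembryonic tissue, was in the higher list, and Gatm was in neither. Sfmbt2 spans 225 kb and lies in the same length decile as Kcnq1.

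Relatives of Gnas and genes of the cAMP pathway were looked up beside it; over all protein-coding genes the higher list held 12.1% and the lower list 1.51%. Of 16 G protein alpha subunit genes, a family that includes Gnas itself and subunits that inhibit cyclases or couple to other effectors, 3 were in the higher list (18.8%). They were Gnas, Gnao1 and Gnaz, and Gnas was the 1 that was also in the lower list. Of 10 adenylate cyclase genes, whose enzymes make cAMP, the higher list held 4 (40%) and the lower list 1 (10%). Adcy1, Adcy5 and Adcy7 were in the higher list alone and Adcy2 was in both. Of 6 subunit genes of the cAMP-dependent protein kinase, the regulatory subunit genes Prkar1b and Prkar2a were in the higher list (33.3%), and the lower list held 0. Several of these genes are long, such as Adcy2 at 380 kb, and lie in the decile of which 38.4% was in the higher list.

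Of 8 genes whose proteins bind or maintain imprinted control regions, 0 were named in either direction, where the higher list held 12.1% of protein-coding genes and the lower list 1.51%. In a set this small, a count of 0 is near those shares. These were Zfp57, Trim28 and Zfp445, which protect methylated imprints, Dnmt1 and Uhrf1, which copy methylation at replication, Dppa3, Ctcf and Yy1. Absence from a list of names shows no more than that no listed region had the gene as its nearest.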

How the data were processed

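Per the labels' protocols, 75 ng of DNA per library from sorted cells of over 95% viability was tagmented with Tn5, bisulfite-converted, amplified by 12 PCR cycles and sequenced as paired 150-base reads, about 400000000 per library. The submitters' processing notes name Trim Galore and the builds mm10 and GRCm38. No source used here gives the aligner, the region caller, its thresholds, the coverage minimum or the nearest gene rule, and the depth at each region is unknown. The authors deposited 1 table of gene names with no measured values. Per the file headers, its first column names genes near lower methylation in null cells and its second those near higher methylation; 7 further columns without a header were read as carrying on the second.

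Ignoring case, names were matched to the current symbols, gene IDs and unique older symbols of 49997 genes (RefSeq, GRCm38.p6), with Python 3.11.15. Of 3230 names in the higher list 3145 matched, and of 429 in the lower list 406. Counts of members are set beside the share of all genes, and of protein-coding genes in the same of 10 length deciles. Neighbours have a base within 500 kb of the locus. Promoter windows come from RefSeq (5 of the 6 members matched). No test across samples was possible with 1 library per genotype. Neighbour counts and sequence counts were checked on simulated data. Name matching was checked on drawn current symbols with case varied and on made-up names. That check did not cover gene IDs or older symbols such as Nespas. The members and the gene lists were chosen with earlier results of these data known. Named are all members, the nearest gene on each side of a locus, neighbours within 500 kb in either list, and list members in either list; further names were chosen after their values were seen. Alternatives varied the matching, the columns read, the genes counted, the window and the promoter width.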

Additional observations from a re-analysis of the deposited data

How the results depend on the processing

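With current symbols alone, the higher list held 4 members and the lower list 1, because the table uses the older symbol Nespas. With the second column alone, 0 members were in the higher list, since its names stop at the letter A. Among protein-coding genes the shares were 12.1% for the higher list and 1.51% for the lower list, and without predicted genes 11.2% and 1.39%. Within 250 kb the higher list held 2 neighbours and the lower list 0, and within 1000 kb 12 and 2; the protein-coding neighbours within 500 kb gave the same 5 and 1, of which 3 and 1 were around Gnas and Nespas. The median observed over expected CpG was 0.796 with the 250 bases before the start alone. No paired analysis was possible because there is 1 library of each genotype. Region calling, coverage and the size of the methylation difference could not be varied, since the table holds names alone.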

Other observations

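Genes of chromosome 2 in the lower list were mostly in the higher list too. Of 22 genes in the lower list, 14 (63.6%) were in both, against 130 of 406 (32%) over all chromosomes. As a share of the higher list the shared genes were 5.41% on chromosome 2 and 4.13% overall. Gnas and Nespas were 2 of the 14. Other shared genes of chromosome 2 were Cacnb4, a calcium channel subunit gene, the low-density lipoprotein receptor family gene Lrp4, the phospholipase gene Plcb4 and the zinc finger gene Tshz2. These were picked out after their values were seen, and the difference was not tested.

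Gnas was the last gene of the lower list along chromosome 2. In the 7.65 Mb from its end to the last annotated gene lie 209 genes, 107 of them protein-coding. Of the 209, the higher list held 8 (3.83%) and the lower list 0. Over all genes of chromosome 2 the shares were 6.99% and 0.594%, so a count of 0 in the lower list is near its share.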
